A study of Mus musculus with 2 samples.

Results

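Receptors for steroid and thyroid hormones, with a target gene of oestrogen and a target gene of glucocorticoids, were followed across the cell classes of the male mouse pituitary at 20 and 2 months of age. The set is 8 of the 32285 genes in the files, taken by symbol: 6 receptor genes (Esr1, Pgr, Nr3c1, Nr3c2, Thra and Thrb) and 2 target genes (Greb1 and Fkbp5). Whole glands of male C57BL/6 mice, an inbred strain with no transgene or treatment in the labels, were dissociated and profiled by droplet-based 3' single-cell RNA sequencing. The old library pooled 10 glands at 20 months and the young library pooled 10 glands at 2 months. Since each age has 1 library, differences between ages could not be tested, the values have no replicate check, and animal, pool and preparation cannot be told apart from age. Brackets after a level or ratio hold a 95% interval that covers counting error only.

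These receptors are transcription factors that bind a hormone inside the cell. Steroid receptors are held by chaperones until the hormone arrives, whereas thyroid hormone receptors sit on DNA with retinoid X receptors and repress their targets when the hormone is missing. In the pituitary they carry feedback: glucocorticoids restrain Pomc and the corticotrophs, oestrogen acts on lactotrophs and gonadotrophs, and thyroid hormone restrains thyrotrophs and sustains Gh in somatotrophs. Greb1 is an oestrogen-induced gene whose product works as a cofactor of oestrogen receptor alpha in breast cancer cells. Fkbp5 encodes an HSP90 co-chaperone that is induced by glucocorticoids and lowers the hormone binding of the glucocorticoid receptor.

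The 300 bases from 250 before to 50 after the annotated starts of both target genes are shown because they hold, or lack, the short motifs that the receptors are known to bind. The sequences are from RefSeq on GRCm38.p6, read 5′ to 3′ on the strand of the gene, and capitals mark GGTCA or its reverse complement TGACC, the core of an oestrogen or thyroid hormone response element. Both target genes lie on the minus strand. The Greb1 windows are chr12:16800837-16801136 and chr12:16757190-16757489, and the Fkbp5 window is chr17:28486100-28486399.
Greb1, window 1: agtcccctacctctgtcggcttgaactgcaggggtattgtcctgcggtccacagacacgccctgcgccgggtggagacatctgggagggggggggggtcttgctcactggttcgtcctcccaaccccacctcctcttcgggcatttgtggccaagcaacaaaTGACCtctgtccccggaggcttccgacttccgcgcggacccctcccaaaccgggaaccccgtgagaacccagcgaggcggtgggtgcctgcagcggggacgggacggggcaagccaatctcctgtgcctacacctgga
Greb1, window 2: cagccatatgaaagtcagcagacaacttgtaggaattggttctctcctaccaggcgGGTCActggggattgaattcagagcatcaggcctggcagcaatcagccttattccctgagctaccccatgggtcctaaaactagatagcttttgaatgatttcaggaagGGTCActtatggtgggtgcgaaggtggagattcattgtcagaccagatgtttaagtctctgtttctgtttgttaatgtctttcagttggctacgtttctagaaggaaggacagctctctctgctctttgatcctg
Fkbp5: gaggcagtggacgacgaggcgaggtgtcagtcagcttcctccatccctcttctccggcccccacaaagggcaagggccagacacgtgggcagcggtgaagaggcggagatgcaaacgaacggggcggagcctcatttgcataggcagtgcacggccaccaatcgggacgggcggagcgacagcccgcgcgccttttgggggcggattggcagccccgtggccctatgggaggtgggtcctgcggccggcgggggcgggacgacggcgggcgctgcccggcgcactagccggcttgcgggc
Window 1 of Greb1 held 1 core, 88 bases before the start and on the strand opposite the gene, and window 2 held 2, at 194 and 85 bases before the start. The core is common: 40.5% of the 32851 windows of this length held it on either strand. No window of the set held the full palindrome GGTCANNNTGACC, which contains the core on both sides and which 23 windows of all held (0.070%). In the Fkbp5 window neither that core nor TGTTCT or AGAACA, the core of a glucocorticoid response element (in 19.0% of windows), was present, which says nothing of other stretches of the gene. Of the set, 6 genes had a window in the table and Nr3c1 and Thra had none.

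UMIs (unique molecular identifiers, which count captured transcripts) came to 138427393 in the old and 154510099 in the young library. After filters and removal of likely doublets 9017 old and 8531 young barcodes remained, with a median of 3157 and 6317 UMIs. Of these, 5545 old barcodes and 1 young barcode formed a cluster whose profile matched that of empty droplets (r = 0.9987 across genes), and they were kept apart as free RNA, which left 3472 old and 8530 young cells. These include 190 old and 308 young barcodes of a cluster led by Gh that got no name, at r = 0.908 with empty droplets. It stands in no class but is counted in the total UMIs of a gene. Cells were clustered without the 8 genes and named by the markers of each cell type, and a class is written "X-like" because it rests on those markers. The 5 classes described between ages held 1134 old and 3986 young somatotroph-like cells, 270 and 395 lactotroph-like cells, 308 and 1253 corticotroph-like cells, 280 and 975 stem cell-like cells, and 413 and 750 macrophage-like cells. All markers of a class's own list had UMIs in it, and the gonadotroph-like cluster (36 old and 63 young cells) also held Tshb, the thyrotroph hormone, among its 10 leading genes. The libraries shared 15 cell barcodes, 4 of them in the same class. Levels are in CPM, the UMIs of a gene summed over the cells of a class and scaled to a fixed total from which 7 hormone and 13 mitochondrial genes were left out. Levels are compared within a gene and never between genes.

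Esr1 (ENSMUSG00000019768), which encodes oestrogen receptor alpha, was most abundant in lactotroph-like cells, at 241 CPM (218 to 265) in the old and 211 CPM (194 to 229) in the young library. Somatotroph-like cells followed with 124 CPM (116 to 132) in the old and 123 CPM (118 to 127) in the young library. Gonadotroph-like cells held 140 CPM (106 to 182) in the old and 85.5 CPM (63.9 to 112) in the young library. The lactotroph-like level thus lay above all other classes in both libraries, while the old gonadotroph-like and somatotroph-like intervals overlapped. Melanotroph-like cells had 68.0 CPM in the old and 45.5 CPM in the young library, and corticotroph-like cells were among the lowest with 13.9 and 6.09 CPM. Of cells thinned to 2000 UMIs, 35.6% of old and 31.4% of young lactotroph-like cells held an Esr1 UMI (68.1% and 70.4% before thinning), against 2.37% and 2.04% of T or NK cell-like cells (7.69% and 2.72% before thinning), a class taken here as background. Median depths before thinning were 5071.5 UMIs in old and 8477 in young lactotroph-like cells, and 5437 and 3998 in T or NK cell-like cells. Corticotroph-like cells, at 2.92% in the old and 1.20% in the young library, stood near that background.

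Between ages, Esr1 was level in somatotroph-like cells, with an old over young ratio of 1.01 (0.936 to 1.08), and it was 1.14 (1.00 to 1.30) in lactotroph-like cells. Most of the higher old values came from classes where the gene is scarce. Stem cell-like cells had 25.1 CPM in the old and 14.1 CPM in the young library, a ratio of 1.78 (1.27 to 2.47) that was 0.209 on the log2 scale, and no longer past 1.5-fold, without doublet removal, and macrophage-like cells had 23.2 and 12.9 CPM, a ratio of 1.79 (1.18 to 2.73). The corticotroph-like ratio of 2.28 (1.45 to 3.57) rests on 39 old and 47 young UMIs. At the rate of free RNA estimated from hormone transcripts in immune classes, 17.5 of those old and 51.2 of those young UMIs would be expected from free RNA, so the young count does not exceed its background. In the gonadotroph-like class, where Esr1 is abundant, the ratio was 1.64 (1.10 to 2.44), from 56 old and 52 young UMIs. These UMIs lay in 13 of 36 old (36.1%) and 24 of 63 young cells (38.1%), so the share of cells was not higher in the old library. After thinning the shares were 16.7% and 4.76%, from 6 and 3 cells. The ratio thus rests on few cells, a spread that its interval does not cover. The gonadotroph-like ratio ran from 1.24 to 4.59 over the alternatives, of which 8 of 11 were past 1.5-fold.

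Pgr (ENSMUSG00000031870), the progesterone receptor gene and itself an oestrogen target, was sparse, with 113 UMIs in old and 259 in young cells. It was highest in the gonadotroph-like and melanotroph-like classes. Gonadotroph-like cells held 20.0 CPM (8.65 to 39.5) in the old and 28.0 CPM (16.3 to 44.8) in the young library, and melanotroph-like cells 24.3 CPM (15.7 to 35.9) and 20.2 CPM (5.51 to 51.8). Old and young intervals overlapped in both. The old gonadotroph-like interval, from 8 UMIs, also overlapped that of old corticotroph-like cells (5.19 to 12.3). The young melanotroph-like interval, from 4 UMIs, overlapped that of young stem cell-like cells (7.96 to 12.7). Macrophage-like cells had 0 old and 2 young UMIs, and monocyte-like, pituicyte-like and fibroblast-like cells had none in either library. The lactotroph-like ratio, 0.631 from 9 old and 22 young UMIs, turned to 0.093 on the log2 scale when cells were thinned, and no direction is read from it.

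**Figure D1:**
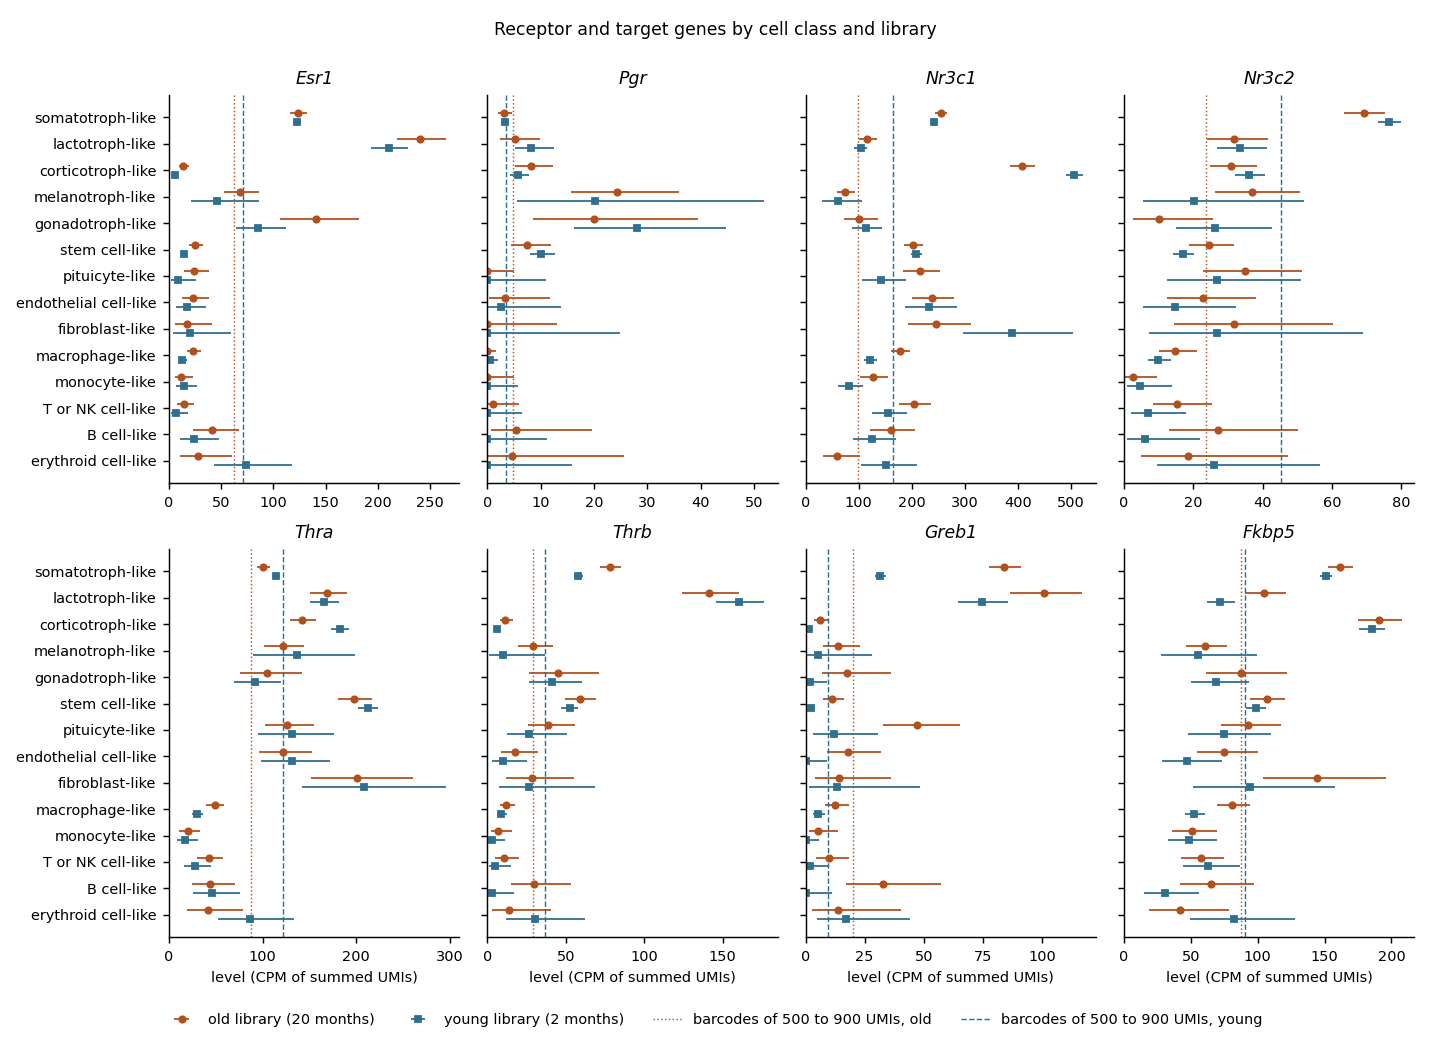
Level of each of the 8 genes (CPM of summed UMIs, horizontal axis) by class (vertical axis), with old above young in each row, bars for 95% counting intervals and vertical lines for barcodes of 500 to 900 UMIs of each library. Esr1 peaked in lactotroph-like cells (241 CPM old, 211 CPM young), Nr3c1 in corticotroph-like cells (408 and 507 CPM), and Greb1 stood at 84.1 CPM in old against 31.6 CPM in young somatotroph-like cells.

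Greb1 (ENSMUSG00000036523) was highest in lactotroph-like and somatotroph-like cells, as was Esr1 apart from the gonadotroph-like class. In gonadotroph-like cells Greb1 had 17.5 CPM in the old library, from 7 UMIs, and 1.64 CPM in the young library, from 1 UMI. These UMIs were too few for a ratio, and no difference between ages is read from them. Lactotroph-like cells held 101 CPM (86.4 to 117) in the old and 74.4 CPM (64.4 to 85.5) in the young library. In somatotroph-like cells the values were 84.1 CPM (77.6 to 90.9) in the old library, from 633 UMIs, and 31.6 CPM (29.5 to 33.8) in the young library, from 853 UMIs. The intervals of both classes overlapped in the old library, while in the young library lactotroph-like cells stood above somatotroph-like cells. The other classes of 30 cells or more in both libraries were at or below 47.1 CPM in the old and 17.3 CPM in the young library.

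The old over young ratio of Greb1 was 2.66 (2.40 to 2.95) in somatotroph-like and 1.36 (1.10 to 1.67) in lactotroph-like cells. No test of the difference between these classes was possible. It was 2.47 (1.31 to 4.76) in macrophage-like cells, and 4.58 and 3.90 in stem cell-like and corticotroph-like cells from 45 and 29 UMIs in all. The higher old value recurred in classes with low Greb1 levels: of 14 classes (those of 30 cells or more in both libraries) 13 had the higher CPM in the old and 1 (erythroid cell-like) in the young library. Some of these rest on few UMIs, such as 4 old and 0 young in monocyte-like and 9 and 1 in T or NK cell-like cells. The median gene was also higher in the old library in the classes whose ratios are given here. Barcodes of 500 to 900 UMIs, too small to be counted as cells here, also held more in the old library, 20.2 CPM (17.1 to 23.8) against 9.63 CPM (8.38 to 11.01). Subtracting the profile of barcodes of 10 to 100 UMIs left 98.0 CPM in old and 35.9 CPM in young somatotroph-like cells, 11.1 and 4.61 CPM in macrophage-like cells, and 3.44 and 0.68 CPM in corticotroph-like cells. The part of free RNA in the difference between ages was not tested further in any of these classes.

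Within the somatotroph-like class all 4 clusters had the higher Greb1 level in the old library. Cluster 6 had 144 CPM (114 to 180) in the old and 42.1 CPM (31.6 to 55.1) in the young library, and cluster 5 had 117 CPM (101 to 135) and 45.7 CPM (39.6 to 52.5). Cluster 2 had 75.8 CPM (67.9 to 84.4) in the old and 44.9 CPM (40.3 to 49.96) in the young library. Cluster 4, the lowest in Greb1, had 35.7 CPM (25.0 to 49.4) in the old and 18.8 CPM (16.6 to 21.2) in the young library, and it held 109 of the old but 1501 of the young cells. No pair of old and young intervals overlapped, and the ratio on the log2 scale was 1.07, instead of 1.41, when both libraries were given the cluster sizes of the young one. Esr1 did not run in parallel: it was lower in old cells of clusters 2 and 5 (115 against 147 CPM, and 153 against 189 CPM) and close in clusters 4 and 6 (88.1 against 84.2 CPM, and 168 against 163 CPM).

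**Figure D2:**
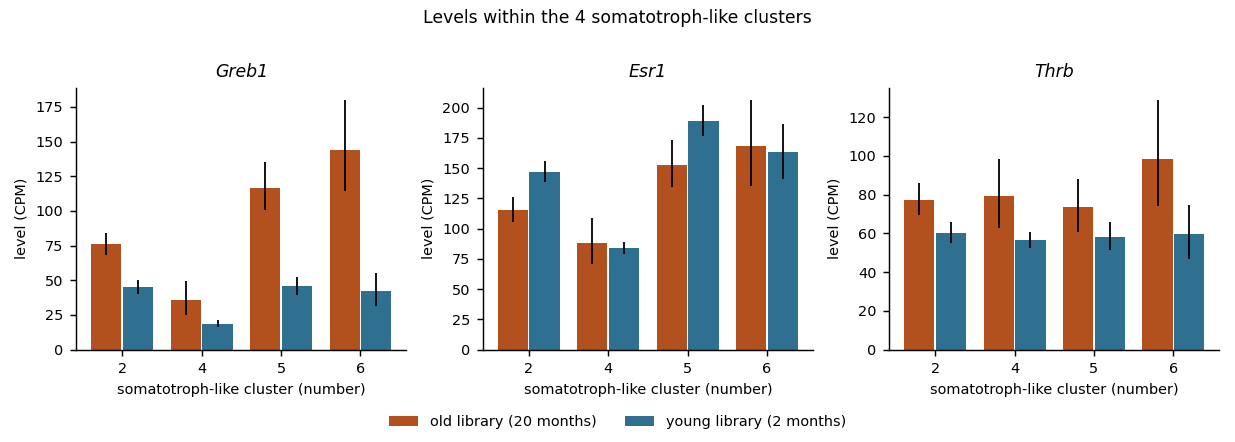
Levels (CPM, vertical axis) of Greb1, Esr1 and Thrb in the 4 somatotroph-like clusters (horizontal axis), old bars left of young bars, with 95% counting intervals. Greb1 was higher in the old library in every cluster, with 144 against 42.1 CPM in cluster 6, and Esr1 was lower in the old library in clusters 2 and 5.

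The share of thinned somatotroph-like cells with a Greb1 UMI was 11.02% (9.26% to 12.99%) in the old and 4.44% (3.82% to 5.13%) in the young library, and 34.2% and 15.7% before thinning, at median depths of 6571 and 9640 UMIs. In lactotroph-like cells the thinned shares were 21.5% and 11.6% (42.2% and 32.9% before thinning). T or NK cell-like cells, as background, had 1.78% and 0.68%, with 3 and 1 cells (4.73% and 0.68% before thinning). More cells thus held the transcript in the old library in both classes, above that background. Lactotroph markers were also higher in the old somatotroph-like class: the 4 markers, none at 0, summed to 1018 CPM of all UMIs in the old and 525 CPM in the young library. Their part in the Greb1 values was not tested.

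The share of cells with Greb1 was similar in cells with and without an Esr1 UMI. Among old somatotroph-like cells, 11.8% (7.56% to 17.4%) of those with and 10.9% (8.96% to 13.02%) of those without an Esr1 UMI held Greb1. The young shares were 5.32% (3.71% to 7.36%) with and 4.27% (3.61% to 5.01%) without. Lactotroph-like cells gave 20.8% with and 21.8% without in the old library, and 12.9% and 11.1% in the young library. Intervals overlapped in each of these pairs, and at 2000 UMIs a missing Esr1 UMI does not show that a cell lacks the transcript.

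**Figure D3:**
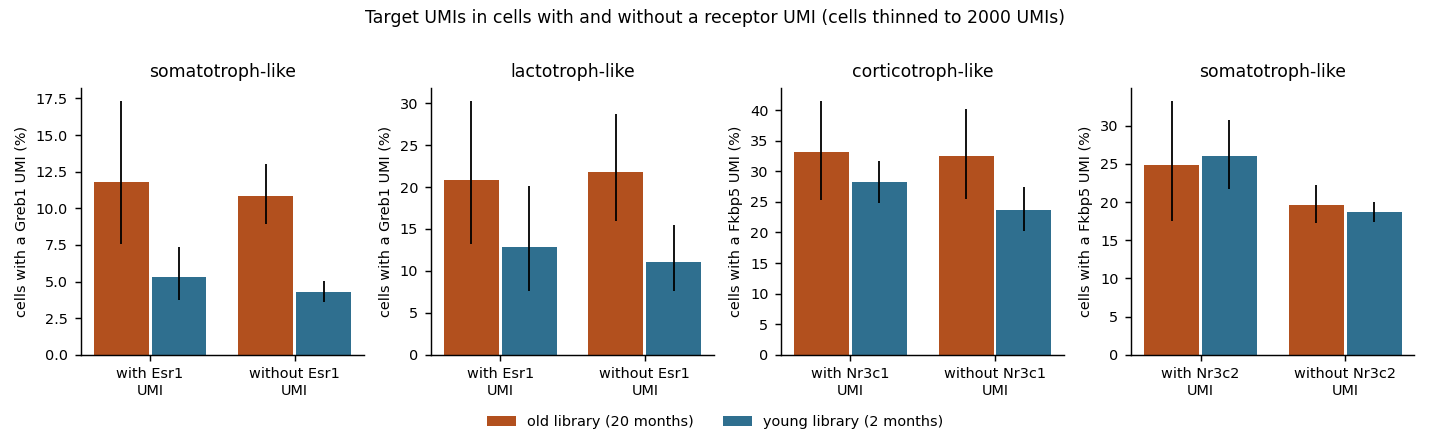
Share of thinned cells with a target UMI (%, vertical axis) among cells with and without a receptor UMI (horizontal axis), old bars left of young bars, with 95% exact binomial intervals. Greb1 shares were 11.8% and 10.9% in old and 5.32% and 4.27% in young somatotroph-like cells, so the libraries differed more than the cells with and without Esr1.

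Nr3c1 (ENSMUSG00000024431), the glucocorticoid receptor gene, had UMIs in every class and its highest level in corticotroph-like cells, the cells that make the precursor of ACTH. There it stood at 408 CPM (385 to 433) in the old and 507 CPM (491 to 523) in the young library. Fibroblast-like cells had 247 CPM (192 to 312) in the old and 390 CPM (296 to 504) in the young library, and the young value overlapped that of corticotroph-like cells. Somatotroph-like cells had 254 CPM (243 to 266) in the old and 242 CPM (236 to 248) in the young library. Lactotroph-like cells stood lower, with 116 and 104 CPM. Melanotroph-like cells, which make Pomc as well, were at the low end with 74.8 CPM (59.0 to 93.5) in the old and 60.7 CPM (31.4 to 106) in the young library, below the 98.0 and 164 CPM of barcodes of 500 to 900 UMIs.

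The corticotroph-like ratio of Nr3c1 was 0.805 (0.753 to 0.860), lower in the old library but within the fold of 1.5 used for a call. Both corticotroph-like clusters had the lower value in the old library, with 415 against 514 CPM in cluster 7 and 300 against 397 CPM in cluster 24. The thinned share of corticotroph-like cells with an Nr3c1 UMI was 45.1% (39.5% to 50.9%) in the old and 54.6% (51.8% to 57.4%) in the young library. Before thinning the shares were 84.4% and 83.2%, at median depths of 8487 and 7119 UMIs. The direction was the opposite in macrophage-like cells, at 179 CPM (161 to 198) in the old and 122 CPM (111 to 134) in the young library, a ratio of 1.46 (1.27 to 1.68). Monocyte-like cells (128 CPM old and 82.0 CPM young) and pituicyte-like cells (217 and 143 CPM) were higher in the old library. The pituicyte-like direction turned when cells were thinned, to -0.078 on the log2 scale, and the thinned shares of pituicyte-like cells with an Nr3c1 UMI were 22.7% in the old and 25.0% in the young library. The monocyte-like ratio kept its direction but was past 1.5-fold in 7 of 12 alternatives. Erythroid cell-like cells (60.0 and 151 CPM) and fibroblast-like cells (247 and 390 CPM) were lower. Somatotroph-like, lactotroph-like and stem cell-like ratios lay between 0.973 and 1.12.

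Nr3c2 (ENSMUSG00000031618) encodes the mineralocorticoid receptor, which binds corticosterone with higher affinity than the glucocorticoid receptor. It was highest in somatotroph-like cells, at 69.2 CPM (63.4 to 75.4) in the old and 76.4 CPM (73.2 to 79.8) in the young library, and no other class reached those intervals in the young library. Lactotroph-like cells had 31.9 and 33.4 CPM, and corticotroph-like cells 31.0 and 36.1 CPM. These levels differed little between ages, with ratios of 0.905, 0.953 and 0.857. Immune classes were low, with 14.8 CPM in old and 9.85 CPM in young macrophage-like cells and 2.66 and 4.73 CPM in monocyte-like cells. Barcodes of 500 to 900 UMIs held 23.8 and 45.4 CPM of Nr3c2, so levels outside somatotroph-like cells did not stand clear of the small barcodes of the young library.

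Fkbp5 (ENSMUSG00000024222) was highest where Nr3c1 was highest. Corticotroph-like cells had 191 CPM (175 to 207) in the old and 185 CPM (176 to 195) in the young library, and somatotroph-like cells had 162 CPM (153 to 171) and 151 CPM (146 to 156). The ratios were 1.03 and 1.07. The thinned share of corticotroph-like cells with an Fkbp5 UMI was 32.8% (27.6% to 38.3%) in the old and 26.2% (23.8% to 28.7%) in the young library (68.5% and 59.1% before thinning), and thinned sums gave a log2 ratio of 0.351, against 0.041 at full depth. Lactotroph-like cells had 105 CPM (90.2 to 121) in the old and 71.8 CPM (61.9 to 82.7) in the young library, a ratio of 1.46 (1.19 to 1.80), and macrophage-like cells had 81.1 and 52.6 CPM, a ratio of 1.54 (1.25 to 1.90). Of the 14 classes 12 had the higher Fkbp5 level in the old library. The same count was 13 for Greb1, 12 for Thrb, 11 for Esr1, 9 for Nr3c1, 8 for Nr3c2, 6 for Pgr and 5 for Thra. The median gene was also higher in the old library in somatotroph-like, lactotroph-like, corticotroph-like, stem cell-like and macrophage-like cells, so the Fkbp5 count alone is not read as a rise.

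Fkbp5 and its receptors were then set side by side in single thinned cells. Among corticotroph-like cells, 33.1% with and 32.5% without an Nr3c1 UMI held Fkbp5 in the old library, and 28.2% and 23.7% in the young library. The old somatotroph-like shares were 20.2% in both kinds of cell, and the young ones 21.8% (19.3% to 24.4%) with and 18.5% (17.1% to 20.0%) without. A UMI of Nr3c2 went with a larger gap: 24.8% (17.5% to 33.3%) with and 19.6% (17.2% to 22.2%) without in old, and 26.1% (21.7% to 30.8%) with and 18.7% (17.4% to 20.0%) without in young somatotroph-like cells. The young intervals did not overlap. The young cells with an Nr3c2 UMI had a median of 5546 UMIs before thinning and those without 10559, and the part of this difference in the shares was not tested.

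Thra and Thrb, which encode thyroid hormone receptors alpha and beta, were spread differently over the classes. Thra (ENSMUSG00000058756) was broad, with 198 CPM (180 to 216) in old and 212 CPM (202 to 223) in young stem cell-like cells, and 201 and 208 CPM in fibroblast-like cells. The old library also held 38 oligodendrocyte-like cells, absent from the young library, with 313 CPM (248 to 390). Lactotroph-like cells had 169 and 165 CPM, corticotroph-like cells 143 and 183 CPM, and somatotroph-like cells 101 and 114 CPM. Stem cell-like and fibroblast-like intervals overlapped in both libraries, and immune classes stood at the low end, with 19.9 and 17.3 CPM in monocyte-like cells. Thrb (ENSMUSG00000021779) was narrower, led by lactotroph-like cells with 141 CPM (124 to 160) in the old and 160 CPM (146 to 176) in the young library, then somatotroph-like cells with 78.4 CPM (72.2 to 84.9) and 58.0 CPM (55.1 to 60.9), and stem cell-like cells with 58.9 and 52.4 CPM. Corticotroph-like cells had 11.4 and 5.96 CPM of Thrb, below the 29.1 and 36.8 CPM of barcodes of 500 to 900 UMIs. No cluster was named for thyrotrophs, so these cells have no place in the order of Thrb levels. The gonadotroph-like cluster, which also held Tshb, had 45.1 CPM of Thrb in the old and 41.1 CPM in the young library.

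In the somatotroph-like class Thrb was higher and Thra lower in the old library, except that Thra turned to the old side, 0.082 on the log2 scale, when all UMIs made up the total. Thrb had a ratio of 1.35 (1.23 to 1.49) there and was higher in the old library in all 4 clusters, with 77.4 against 60.3 CPM in cluster 2, 79.2 against 56.5 CPM in cluster 4, 73.5 against 58.2 CPM in cluster 5 and 98.6 against 59.6 CPM in cluster 6. In lactotroph-like cells the Thrb ratio was 0.881 (0.750 to 1.03). The Thra ratio was 0.882 in somatotroph-like and 0.780 (0.696 to 0.872) in corticotroph-like cells. In macrophage-like cells Thra went the other way, with 48.6 CPM (39.8 to 58.9) in the old and 29.8 CPM (24.4 to 36.1) in the young library, a ratio of 1.63 (1.23 to 2.16). Thra overlaps Nr1d1 by 1075 bases on the other strand, by GENCODE annotation, and the use of strand in counting is not given in the sources used here. Nr1d1, a clock repressor, had 87.3 CPM in old and 125 CPM in young corticotroph-like cells, and 33.4 and 27.6 CPM in macrophage-like cells, so reads of one gene counted for the other cannot be told apart. Greb1, Thrb, Nr3c2 and Fkbp5 also overlap counted genes on the other strand. In somatotroph-like cells the one at Greb1 had 3 old and 3 young UMIs, the one at Thrb 6 and 4, and the one at Nr3c2 16 and 71. The one at Fkbp5 (Gm22146) had 77 old and 270 young UMIs there, and 35 and 60 in corticotroph-like cells (12.5 and 7.77 CPM).

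In the 5 classes compared, few of the 8 genes passed the fold of 1.5 outside macrophage-like cells. Among somatotroph-like genes with at least 50 UMIs, 1 of 8 passed it upward (Greb1) and 0 downward, beside 9.32% and 7.04% of all 13147 genes. Lactotroph-like cells had 0 of 7 in either direction, beside 17.0% upward and 7.03% downward. Corticotroph-like cells had 2 of 7 upward (Esr1 and Thrb) and 0 downward, beside 9.14% and 5.58%, and stem cell-like cells 1 of 7 upward (Esr1), beside 7.45% and 4.56%. In macrophage-like cells 4 of 6 were higher (Esr1, Nr3c2, Thra and Fkbp5) and 0 lower, beside 17.0% and 2.97%. Of these the Nr3c2 ratio of 1.505 (0.902 to 2.503) rests on 32 old and 35 young UMIs, and its interval includes 1. The median gene of the macrophage-like class was itself 0.202 higher on the log2 scale in the old library, and scaled to that median 1 of the 6 (Esr1) passed. The same shift was 0.113 in lactotroph-like, 0.140 in T or NK cell-like and -0.556 in erythroid cell-like cells. Relative to the median gene, the log2 ratios in lactotroph-like cells were 0.326 for Greb1, 0.435 for Fkbp5 and 0.077 for Esr1. In macrophage-like cells they were 1.10 for Greb1, 0.637 for Esr1, 0.503 for Thra, 0.421 for Fkbp5 and 0.348 for Nr3c1. The calls of members did not all hold: of the alternatives 12 of 13 kept Esr1 and 14 of 15 kept Thrb past the fold in corticotroph-like cells, and in macrophage-like cells 9 of 15 kept Nr3c2, 10 of 15 Fkbp5 and 14 of 15 Thra. The 13 for Esr1 leave out both subtractions of free RNA, which left no young Esr1 UMIs in corticotroph-like cells and so gave no ratio. A total of all UMIs put 2 genes past the fold in somatotroph-like (Greb1 and Thrb) and in lactotroph-like cells (Greb1 and Fkbp5), and with it 21.4% of all somatotroph-like genes passed upward and 3.45% downward, and 26.1% and 3.45% of lactotroph-like genes. Scaled to the median gene, the shares of all genes were 12.02% upward and 10.9% downward in lactotroph-like, 6.71% and 7.43% in corticotroph-like, and 8.01% and 6.61% in macrophage-like cells. Median log2 ratios of the set were 0.042 in somatotroph-like, 0.168 in lactotroph-like, 0.041 in corticotroph-like, 0.114 in stem cell-like and 0.606 in macrophage-like cells, beside 0.019, 0.113, 0.074, 0.025 and 0.202 for all genes.

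**Figure D4:**
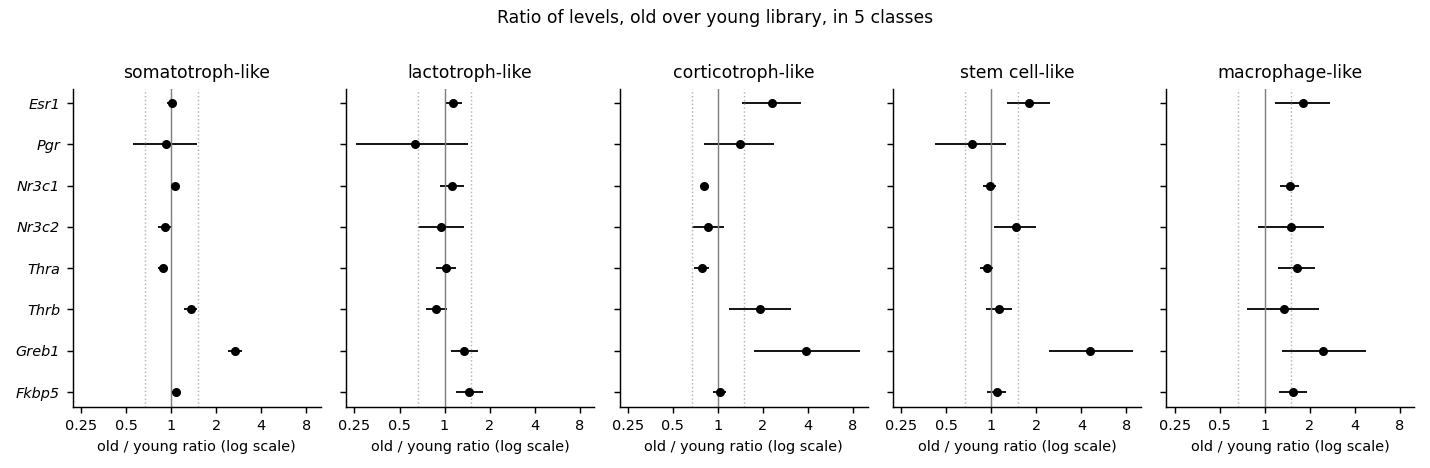
Old over young ratio (horizontal axis, log scale) of each gene with at least 20 UMIs in 5 classes, with 95% counting intervals. Greb1 at 2.66 in somatotroph-like cells had the narrowest interval (2.40 to 2.95) of the ratios past 1.5, and Nr3c1 in corticotroph-like cells stood at 0.805.

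Other genes of these pathways were read from lists, with ratios that have 0.5 UMI added and genes of at least 50 UMIs in a class. Hormone genes on the lists stand outside the total and were not counted. Klf9 is counted both as a glucocorticoid and as a thyroid hormone receptor target. Nrip1 is counted both as an oestrogen receptor target and as a receptor partner. Greb1, Pgr and Fkbp5 stand on target lists as well as in the set. The counts are to be read beside the shares of all genes past the fold: 9.32% higher and 7.04% lower in somatotroph-like, 17.0% and 7.03% in lactotroph-like, 9.14% and 5.58% in corticotroph-like, 7.45% and 4.56% in stem cell-like, and 17.0% and 2.97% in macrophage-like cells. Of oestrogen receptor targets in somatotroph-like cells, 3 of 9 were higher in the old library (Greb1, Gal at 2.70-fold and Igfbp4 at 3.98-fold) and 2 lower (Ccnd1 14.8-fold and Igf1 2.91-fold). Igfbp4 was scarce there, at 5.31 CPM in the old and 1.33 CPM in the young library, from 40 and 36 UMIs. Fibroblast-like cells held 994 and 639 CPM of it, and the part of free RNA in the Igfbp4 ratio was not tested. Gal encodes galanin, a peptide that oestrogen induces in lactotrophs, and Ccnd1 encodes cyclin D1, which drives entry into the cell cycle. The targets thus did not share a direction in the class with the higher Greb1. In lactotroph-like cells 0 of 7 were higher and 1 lower (Ccnd1, 8.39-fold). Corticotroph-like cells had 2 of 8 higher (Gal at 4.08-fold and Xbp1 at 1.51-fold) and 1 lower (Ccnd1, 11.1-fold). Stem cell-like cells had 1 of 10 higher (Gal, from 46 old and 7 young UMIs) and 1 lower (Igfbp4, 1.58-fold), and macrophage-like cells 1 of 6 higher (Nrip1 at 1.56-fold) and 2 lower (Igf1 2.87-fold and Ccnd1 1.53-fold). The counts of 1 of 6 higher in macrophage-like and 1 of 10 in stem cell-like cells stand near those shares. Ccnd1 was past the fold downward in 4 of the 5 classes. List medians (log2) were 0.394, 0.235, 0.065, 0.059 and -0.116 in this order of classes. A total of all UMIs gave 5 higher and 2 lower in somatotroph-like and 3 higher and 1 lower in lactotroph-like cells. Scaling to the median gene left 1 higher and 1 lower in corticotroph-like and 0 higher and 2 lower in macrophage-like cells.

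Glucocorticoid and mineralocorticoid receptor targets were more often lower than higher in old corticotroph-like cells, 7 against 2 of 21, beside 5.58% of all genes lower and 9.14% higher, with a list median of -0.294. Cdkn1a, a cell cycle inhibitor, had 128 CPM in the old and 269 CPM in the young library, Cebpd, a transcription factor, 1101 and 2294 CPM, and Dusp1, a phosphatase that ends MAP kinase signals, 576 and 1133 CPM. The other 4 were 1.62-fold to 1.80-fold lower. Fkbp5 was not among them, and Lcn2 (3.26-fold) and Arrdc2 (1.52-fold) were higher. Scaled to the median gene, 1 was higher and 8 were lower, and with a total of all UMIs 1 and 7. Lactotroph-like cells had 5 of 20 higher, beside 17.0% of all genes, among them the metallothioneins Mt2 with 358 and 105 CPM and Mt1 with 2532 and 1070 CPM and the kinase Sgk3 (2.10-fold), and 2 lower (Cdkn1a 2.78-fold and Scnn1b 2.40-fold), with a median of 0.229. Macrophage-like cells had 8 of 22 higher, beside 17.0% of all genes, led by Klf9 (1.99-fold), Mt2 (1.94-fold) and Zbtb16 (1.92-fold), and 2 lower (Cdkn1a 1.72-fold and Cebpb 1.56-fold), with a median of 0.420. Scaled to the median gene, 3 lactotroph-like and 5 macrophage-like genes were higher and 2 in each class lower. Stem cell-like cells had 4 of 22 higher (led by Anxa1 at 4.55-fold, Scnn1a at 1.66-fold and Zbtb16 at 1.64-fold) and 0 lower, with a median of 0.124. Somatotroph-like cells had 2 of 25 higher (Lcn2 at 2.35-fold and Sgk3 at 1.81-fold) and 2 lower (Scnn1g 1.59-fold and Cdkn1a 1.53-fold), with a median of -0.055, and 4 higher and 0 lower when all UMIs made up the total.

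Thyroid hormone receptor targets differed by class. Lactotroph-like cells had 3 of 8 higher in the old library and 0 lower: Thrsp, a lipid synthesis gene, with 126 and 60.1 CPM, Bcl3 (2.94-fold) and Rcan2 (1.70-fold). Somatotroph-like cells, where Thrb was higher, had 0 of 9 higher and 1 lower (Dbp, a clock output gene, 50.9 and 81.4 CPM), and 1 higher and 0 lower with a total of all UMIs. Corticotroph-like cells had 1 of 10 higher (Rcan2, 1.62-fold) and 2 lower (Dbp 1.90-fold and Klf9 1.68-fold), and stem cell-like cells 2 of 9 higher (Rcan2 at 2.91-fold and Bcl3 at 1.85-fold) and 2 lower (Thrsp 1.78-fold and Dbp 1.57-fold). Macrophage-like cells had 3 of 6 higher (Klf9, Thrsp at 1.96-fold and Bcl3 at 1.83-fold) and 0 lower. Medians (log2) were 0.240 in lactotroph-like, -0.276 in somatotroph-like, -0.143 in corticotroph-like, -0.144 in stem cell-like and 0.683 in macrophage-like cells.

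**Figure D5:**
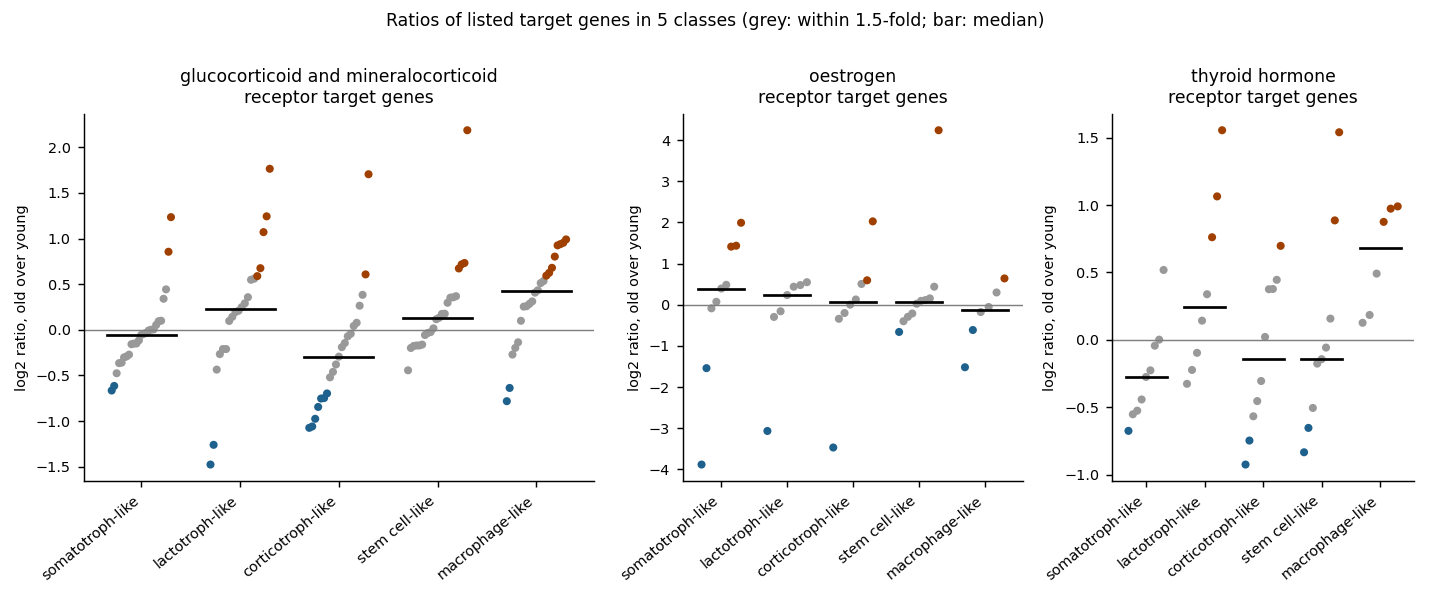
Log2 ratio, old over young (vertical axis), of each listed target gene with at least 50 UMIs in 5 classes (horizontal axis), with orange points at least 1.5-fold higher, blue points at least 1.5-fold lower, grey points within that fold and a bar at the median. Glucocorticoid and mineralocorticoid receptor targets had medians of -0.294 in corticotroph-like and 0.420 in macrophage-like cells.

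Receptor partners, chaperones and genes of hormone supply were counted in the same way. Of other receptors and partners, 1 of 12 was higher in old somatotroph-like cells (Esrrg, an oestrogen-related receptor, at 1.88-fold) and 2 of 12 in lactotroph-like cells (the coactivator Ncoa3 at 1.92-fold and the corepressor Ncor1 at 1.59-fold). In stem cell-like cells the 1 of 11 higher was Rxrg, a partner of thyroid hormone receptors, at 2.95-fold. Corticotroph-like cells had 1 of 11 higher. These counts of partners stand near the shares of all genes that were higher. The shares were 9.32% in somatotroph-like, 17.0% in lactotroph-like, 9.14% in corticotroph-like and 7.45% in stem cell-like cells. Macrophage-like cells had 3 of 11 higher, beside 17.0% of all genes, among them the corepressors Nrip1 and Ncor1 at 1.56-fold and 1.53-fold. Scaled to the median gene 1 of 11 stayed past the fold and these 2 did not. Medians (log2) of the partners were 0.421 in lactotroph-like and 0.444 in macrophage-like cells. Chaperones were within the fold in 10 of 10 genes of 4 classes, and in macrophage-like cells 1 of 10 (Hsp90aa1) was 1.55-fold lower. Scaled to the median gene, 2 chaperones were lower in lactotroph-like and 3 in macrophage-like cells. Of hormone metabolism and transport genes, Crym, which binds thyroid hormone in the cytosol, was 2.21-fold lower in stem cell-like cells, the 1 of 8 past the fold. In lactotroph-like and corticotroph-like cells 1 of 6 was higher in each, and none of 8 somatotroph-like and 5 macrophage-like genes of that list passed. A total of all UMIs made 5 of the partners higher in somatotroph-like and 6 in lactotroph-like cells, and of the metabolism and transport genes 2 of 8 and 3 of 6.

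Likeness of pattern was described across 28 points, the 14 classes in each of the libraries, as Pearson's r of log2(CPM + 5) over 12414 genes. Points share a library and its depth, and the values carry no test. The genes most like Esr1 were Pou1f1 (r = 0.898), Nptxr (0.884) and Lhfpl3 (0.877), and most like Thrb were Gpc4 (0.887), Stx16 (0.858) and Igf1r (0.805). Pou1f1 encodes the transcription factor that defines the somatotroph, lactotroph and thyrotroph lineage. For Greb1 they were Anks1b (0.863), Htatsf1 (0.843) and Tmem132b (0.841), and for Pgr Pak3 (0.893), Rab27b (0.882) and Kcnb2 (0.851). Nr3c1 was nearest Arhgap10 (0.805), Smad6 (0.726) and Tmem37 (0.696), Nr3c2 nearest Aldh6a1 (0.870), Mplkip (0.845) and Cryzl2 (0.845), Thra nearest Nedd4 (0.943), Wasl (0.934) and Selenom (0.933), and Fkbp5 nearest Pknox2 (0.809), Mt1 (0.794) and Osbpl1a (0.794). Within the set, Greb1 was more like Thrb (r = 0.791, Spearman's rho = 0.740) than Esr1 (0.688 and 0.622), and Fkbp5 was about as like Nr3c2 (0.695) as Nr3c1 (0.693).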

How the data were processed

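The authors deposited whole-number UMI counts for each gene in all observed barcodes, unnormalised and without cell calling. The submitters' processing notes name Cell Ranger 6.0.2, FastQC and the build GRCm39, but version 4 of Cell Ranger stands in the header of the matrices. Barcodes with at least 2000 UMIs, 500 genes and at most 15% mitochondrial UMIs were kept. Scrublet's automatic threshold called 0.031% of old and 0.0% of young barcodes, so the highest scores were removed at the rate expected for the number of barcodes, 766 (7.83%) old and 679 (7.37%) young. Both libraries were clustered together, without integration, on 3000 variable genes per library without the 8 genes, 40 principal components, 15 neighbours and Leiden resolution 1. Clusters were named from marker lists, and as free RNA at a correlation of at least 0.95 with barcodes of 10 to 100 UMIs.

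UMIs were summed per class and library. Ratios, with exact conditional Poisson intervals, needed 30 cells per library and 20 UMIs, list genes 50 UMIs, and calls were a fold of 1.5. No test was made. Calculations were checked on simulated counts. The 8 genes, lists, markers and alternatives were chosen with earlier results of these data known. Genes named for likeness are the 3 with the highest r among genes of at least 200 UMIs, and of each list up to 3 per direction are named in a class. Some listed genes that passed the fold are not reported here. Alternatives covered cell filters, doublets, clustering, totals, free RNA, cluster weights, single cells and thinning to 2000 UMIs. Python 3.11.15, scanpy 1.11.5, numpy 2.4.6, scipy 1.17.1 and pandas 2.3.3 were used.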

Additional observations from a re-analysis of the deposited data

Results flagged for a closer look

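Nr3c1 lay on opposite sides in pairs of classes, by at least 1.5-fold in each before any alternative was tried, and the difference between the classes was not tested. The old over young ratio was 1.56 (1.10 to 2.23) in monocyte-like and 1.51 (1.09 to 2.14) in pituicyte-like cells. The pituicyte-like ratio turned on thinning, to -0.078 on the log2 scale, and was past 1.5-fold in 7 of 13 alternatives, the monocyte-like ratio in 7 of 12. The ratio was 0.397 (0.193 to 0.768) in erythroid cell-like cells, from 13 old and 35 young UMIs, and 0.633 (0.440 to 0.912) in fibroblast-like cells, from 70 old and 58 young UMIs. In the erythroid cell-like class the median of all genes was also lower in the old library, by -0.556 on the log2 scale. Pituicyte-like cells held the 4 somatotroph markers, none at 0, at a sum of 81402 CPM of all UMIs in the old and 53874 CPM in the young library, and their part in the ratio was not tested.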

How the results depend on the processing

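No paired analysis was possible because each age has 1 library, and for the same reason no replicate could be left out. Greb1 in somatotroph-like, corticotroph-like, stem cell-like and macrophage-like cells, Esr1 in macrophage-like and erythroid cell-like cells and Nr3c1 in fibroblast-like cells stayed past the fold of 1.5 under every alternative that gave a value. Of these, Esr1 in erythroid cell-like cells (6 old and 17 young UMIs) and Nr3c1 in fibroblast-like cells were lower in the old library, and the others were higher. Values here are log2 ratios, old over young, and the cause of a shift was not tested. In somatotroph-like cells a total of all UMIs raised the class by 0.264, to 0.275 for Esr1, 0.362 for Fkbp5, 1.68 for Greb1, 0.338 for Nr3c1, 0.120 for Nr3c2, 0.082 for Thra and 0.698 for Thrb, which turned Nr3c2 and Thra to the old side. Thinning gave -0.181 for Esr1, -0.218 for Fkbp5, 1.19 for Greb1, -0.039 for Nr3c1, 0.055 for Nr3c2, -0.858 for Pgr and -0.034 for Thra. Clusters weighted as in the young library gave -0.143 for Esr1, -0.015 for Fkbp5, 1.07 for Greb1, -0.341 for Nr3c2 and -0.315 for Thra. The mean over cells gave -0.112 for Esr1, -0.035 for Fkbp5 and -0.074 for Nr3c1. Free RNA of 10 to 100 UMIs subtracted gave 0.192 for Fkbp5 and 0.156 for Nr3c1, and of 500 to 900 UMIs 0.191 for Nr3c1. Outside that class, values reversed without doublet removal for Esr1 in B cell-like (-0.050), Nr3c2 in endothelial cell-like (-0.220) and Nr3c2 in gonadotroph-like cells (0.20), by the mean over cells for Nr3c2 in endothelial cell-like cells (-0.226), and on thinning for Greb1 (-1.72) and Nr3c1 (-0.078) in pituicyte-like, Nr3c2 in melanotroph-like (-0.251) and Pgr in lactotroph-like cells (0.093). The lactotroph-like ratios of Greb1 and Fkbp5 ran from 0.186 to 0.660 and from 0.286 to 0.726, and the corticotroph-like ratio of Nr3c1 from -0.387 to -0.236. Up to 17 of 82 ratios had no value where a cell filter or resolution left a class too small or unnamed, 56 had none under cluster weights, since their class had 1 cluster, and 3 under thinning. Each subtraction of free RNA left 1 ratio without a value, Esr1 in corticotroph-like cells, where no young UMIs remained. The list counts under both other totals were added after seeing the data. Depth limits Pgr most, with 113 old and 259 young UMIs.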
